A study of Mus musculus with 6 samples.

Results

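The 34 genes described here encode nucleolar factors that make ribosomal RNA and assemble it with ribosomal proteins into ribosomal subunits. They were chosen by name, with earlier results of these data known, and every probe whose platform annotation carries 1 of the 34 symbols was taken. This gave 61 of the 34885 probes with a single gene symbol, and all 34 of the 19057 genes tested had at least 1 probe. RNA had been hybridised to Illumina bead arrays, 1 array per sample. The cells came from the bone marrow of male mice with T cell acute lymphoblastic leukemia that had been induced by NOTCH1. Cells positive for GFP, CD4 and CD8 had been sorted from animals that were 4 weeks past transplantation. Of the 6 arrays, 3 are labelled Klf4-deficient (knock out in the labels) and 3 control (wild type in the labels), and NOTCH1 and the GFP sort are common to both groups. The strain, the age, the means by which Klf4 was deleted and the cells that were transplanted were not found among the labels. Nothing states that the 3 samples of a group came from separate animals, so p-values measure only the spread between these samples, which may be technical.

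Ribosome biogenesis starts in the nucleolus, where RNA polymerase I transcribes a long precursor of the ribosomal RNAs. Small nucleolar RNA-protein particles (snoRNPs) modify the precursor, the small-subunit processome folds and cuts its first part, and other factors build the large subunit from the rest. The pathway is a main target of the transcription factor Myc, it follows the growth rate of a cell, and NOTCH1 drives Myc in T cell leukemia. Klf4 belongs to the Krüppel-like family of DNA-binding proteins and slows the cell cycle in many tissues.

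The mean deposited signal over all probes was 426, 432 and 359 in the arrays labelled Klf4-deficient 1, 2 and 3, and between 417 and 445 in the control arrays. Values were quantile normalised to remove such differences, and all signals below are normalised ones. The brightest Klf4 probe gave 82.1, 45.1 and 93.8 in the arrays labelled Klf4-deficient against 41.5, 18.1 and 23.4 in the controls. This goes against the label, but the position of the probe relative to the deleted part is unknown, so it may check nothing, and every direction given here rests on the labels. Of 14 markers of double-positive T cells, 11 were measured and 10 or 11 of these were above background on each array. Their median log2 difference was -0.09, with 2 above 0 and 9 below 0, and 0 were without overlap. The Cd8a probe in use was above background on 1 of 3 Klf4-deficient and 3 of 3 control arrays, while Cd8b1 differed by -0.05 ± 0.09. Array 3 of those labelled Klf4-deficient stood apart from the other arrays on the first principal component, which held 50.1% of the variance of the genes above background. The summed signal of 14 measured erythroid markers was 76771, 85014 and 101180 in the arrays labelled Klf4-deficient 1, 2 and 3, and 61092 to 73047 in the controls. This sum is mostly Hba-a1 and Hbb-bt. The median of the erythroid list relative to the control mean was 0.16, 1.12 and 1.96 log2 units in these arrays. In single control arrays it was -0.42 to 0.15. For 13 neutrophil markers the sum was 73836, 80796 and 166790, against 69759 to 103160 in the controls, and for 15 monocyte markers 4918, 5316 and 14592, against 3831 to 5467. The monocyte sum is mostly Lyz2, and the list's median relative to the control mean was 0.29, 0.87 and 1.32 log2 units in the arrays labelled Klf4-deficient and at most 0.16 in a control array. The groups did not overlap, with the arrays labelled Klf4-deficient higher, for 7 of these 15 markers, 4 of 14 erythroid, 4 of 9 NK and 0 of 13 neutrophil markers. Of all genes, 5.48% were higher in this way and 6.09% lower. Of 8 measured B lineage markers 0 were without overlap, with 5 above 0 and 3 below 0. The NK markers without overlap were Klrd1, Ctsw, Ccl5 and Nkg7, with log2 differences of 0.91 to 1.36, while Ncr1, Gzmb and Klrk1 were not above background on any array. Prf1 and Klrb1c, above background by their mean, overlapped and differed by -0.18 ± 0.24 and -0.04 ± 0.43. The summed NK signal also overlapped, at 2622, 3428 and 4106 in the arrays labelled Klf4-deficient and 1991 to 3155 in the controls. In limma none of the markers in these lists passed over all genes. The part of these other cells in the results below was not tested.

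None of the nucleolar factors passed the test between the groups. The members' median log2 difference (Klf4-deficient minus control) was 0.09 over 34 genes, with 23 above 0 and 10 below 0, and the median over all 19057 genes was 0. These tallies take in 8 genes below background, whose differences carry no level. Over the 26 genes above it the median was 0.07, with 18 above 0 and 8 below 0, and it was -0.01 over all 9208 genes above background. In limma with Benjamini-Hochberg adjustment over all genes, 0 of the 34 were called at an adjusted p of 0.05, where 0.0105% of all genes were called, and the lowest adjusted p was 0.499. At an unadjusted p under 0.05, 3 of the 34 were higher (3.51% of all genes) and 0 were lower (4.09%), where 7.6% of all genes were at that p in either direction. The groups did not overlap for 5 of the 34, all 5 with the arrays labelled Klf4-deficient higher, where 5.48% of all genes were higher in this way, 6.09% lower and 11.6% either. One of the 5, Utp18, was below background on all 6 arrays. Leaving out the array labelled Klf4-deficient 1 brought the median of the 34 to -0.00031, and it was -0.0089 with no normalization between arrays. Without normalization the median was also lower over all 19057 genes, at -0.032, and over the 9208 above background, at -0.105.

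For most members the arrays bounded the difference to less than 2-fold. For 26 of the 34 genes the mean signal over the 6 arrays was above background. All 26 had a 95% interval within 1 log2 unit of 0 on either side, which is a 2-fold difference, and 19 had one within 0.5. Of the 9208 genes above background, 8187 had an interval within 1 and 5430 one within 0.5. The highest difference among the 26 was 0.32, so both bounds are wider than the differences themselves. Without overlap, 4 of the 26 were higher and 0 lower, where 7.71% of the 9208 genes above background were higher and 9.63% lower. The other 8 genes were Dkc1, Utp15, Utp18, Utp3, Utp20, Wdr12, Rrs1 and Nop16. Among them Utp15 alone was above background on any array, control array 1, so no fold is given for any of the 8 and they are left out of the plot of differences. An absent signal of these probes says nothing on the gene's other transcripts. Sorted cells were measured in bulk, so fewer cells of a type and less RNA per cell cannot be told apart.

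**Figure D1:**
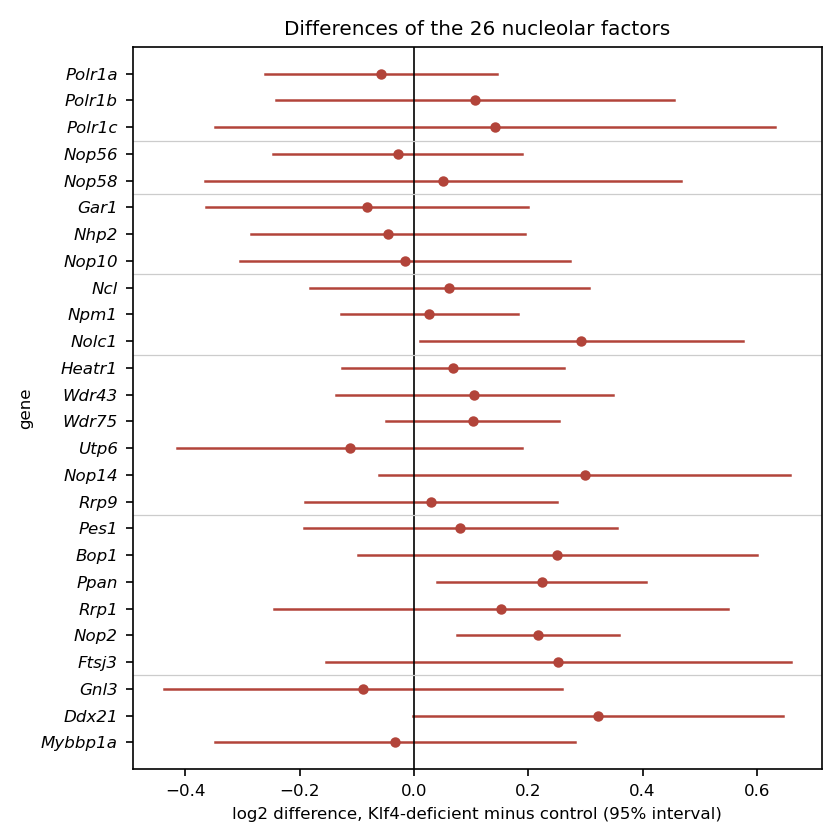
Log2 difference, Klf4-deficient minus control, of each of the 26 genes above background on the horizontal axis, with its 95% interval from limma (3 arrays per group) and genes grouped by role down the page. Points are the fitted differences, and the large-subunit genes Ppan and Nop2 and the scaffold gene Nolc1 are those whose interval lies above 0.

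Of the 9 factors of the large ribosomal subunit, 6 were above background, and these had log2 differences from 0.08 to 0.25 with a median of 0.22, although 0 passed in limma over all genes. The median over the 9 was 0.15, with Wdr12, Rrs1 and Nop16 counted at values below background. Nop2, a methyltransferase of large-subunit ribosomal RNA, gave 547.5, 519 and 526.5 in the arrays labelled Klf4-deficient against 423, 465 and 478 in the controls. Every Klf4-deficient value lay above every control value. The log2 difference of Nop2 was 0.22 ± 0.05 (SE), 1.16-fold, with a 95% interval of 0.07 to 0.36 and an adjusted p of 0.499 from limma. Ppan, a Brix-domain protein of early large-subunit precursors, gave 2014, 1942 and 2210 in the arrays labelled Klf4-deficient and 1884, 1689 and 1700 in the controls. These groups did not overlap either, and the difference was 0.22 ± 0.07 (adjusted p = 0.562 from limma).

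Bop1 and Pes1 encode subunits of the PeBoW complex, which processes the precursor of the large-subunit RNAs, and Wdr12, the gene of the third subunit, was below background. Bop1 gave 376, 378 and 487 in the arrays labelled Klf4-deficient, against 327, 385 and 318 in the controls. Only array 3 of the Klf4-deficient group lay above all controls, and the difference was 0.25 ± 0.13. Pes1, given by array for its partner's sake after its values were seen, had 492, 409 and 381 in the arrays labelled Klf4-deficient, against 417, 382 and 404 in the controls, and here array 1 was the highest of the 6 while array 3 lay less than 1 unit of signal under the lowest control. Ftsj3, a methyltransferase that acts on ribosomal RNA precursors, gave 118.5, 95.2 and 93.3 in the arrays labelled Klf4-deficient and 70.5, 80.4 and 100.03 in the controls (0.25 ± 0.16). Rrp1, a factor of large-subunit processing known from yeast, differed by 0.15 ± 0.15, and both Ftsj3 and Rrp1 overlapped between the groups.

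In the small-subunit processome, the large particle that folds and cleaves the first part of the precursor, 6 of 10 members were above background. Nop14, a component of that particle, gave 85.2, 102.9 and 81.1 in the arrays labelled Klf4-deficient against 61.04, 80.4 and 68.6 in the controls. The groups did not overlap, by a margin of less than 1 unit of signal between Klf4-deficient array 3 and control array 2. Its difference was 0.30 ± 0.14 (adjusted p = 0.737 from limma). Wdr75 belongs to the UtpA complex, which binds the precursor first, and gave 1351, 1288.5 and 1216 in the arrays labelled Klf4-deficient and 1216, 1126 and 1246 in the controls. The difference of Wdr75 was 0.10 ± 0.06, with array 3 of the Klf4-deficient group inside the control range. Heatr1, the largest UtpA subunit, gave 3251, 2761 and 2874, against 2887, 2678 and 2894.5 in the controls (0.07 ± 0.07). Wdr43, also of UtpA, and Rrp9, a protein of the U3 snoRNP, differed by 0.11 ± 0.09 and 0.03 ± 0.08.

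Utp6, a subunit of the UtpB complex, pointed the other way. It gave 871, 777 and 670 in the arrays labelled Klf4-deficient and 761, 881 and 860 in the controls, a difference of -0.11 ± 0.12. Arrays 1 and 2 of the Klf4-deficient group lay within the control range and array 3 below it. Utp18, another UtpB subunit, was listed at 1.98, 4.28 and 11.5 in the arrays labelled Klf4-deficient and at 0 in all 3 controls after values under 0 had been set to 0. Its groups did not overlap, but all 6 values were under the background limit of 21.8 to 23.7, so the order of these values carries no level.

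The snoRNP proteins differed by less than the spread between arrays. Nop56 and Nop58 are the paired scaffold proteins of box C/D snoRNPs, which guide methylation of ribosomal RNA. Nop56 gave 1365, 1176 and 1140 in the arrays labelled Klf4-deficient, against 1274, 1177 and 1295 in the controls (-0.03 ± 0.08). Nop58 gave 2320, 2174 and 1738, against 1919, 1760 and 2332 in the controls (0.05 ± 0.16). In both genes array 1 of the Klf4-deficient group was near the top of the 6 values and array 3 was the lowest. Gar1, Nhp2 and Nop10 are core proteins of box H/ACA snoRNPs, together with the pseudouridine synthase dyskerin, the product of Dkc1. Gar1 gave 3673, 3348.5 and 2819 in the arrays labelled Klf4-deficient and 3300, 3553 and 3511 in the controls. For Nhp2 the signals were 2127, 1936 and 1698, against 1888, 2025 and 2014. Nop10 gave 2323.5, 2621 and 2019, against 2186, 2358 and 2464.5. All 3 genes were lowest on array 3 of the Klf4-deficient group, at 0.29, 0.22 and 0.21 log2 units under the control mean, and their differences were -0.08 ± 0.11, -0.05 ± 0.09 and -0.02 ± 0.11. That array had the highest erythroid, neutrophil and monocyte sums, as given above, while the members Bop1, Ppan and Ddx21 were highest on it. A link between those sums and any member was not tested.

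RNA polymerase I subunits, which transcribe the ribosomal DNA, overlapped between the groups. Polr1b, the second largest subunit, gave 399, 288 and 382 in the arrays labelled Klf4-deficient against 320.05, 338 and 322 in the controls. Array 2 of the Klf4-deficient group was the lowest of the 6 while arrays 1 and 3 were the highest, and the difference was 0.11 ± 0.13. Polr1c, shared with RNA polymerase III, gave 338, 239.7 and 301, against 324, 242 and 227 in the controls (0.14 ± 0.19). For the probe in use of Polr1a, the catalytic subunit, the difference was -0.06 ± 0.08.

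Npm1 and Ncl, which encode the nucleolar chaperones nucleophosmin and nucleolin, held their signal within narrow limits. Npm1 gave 19198, 17659 and 17514 in the arrays labelled Klf4-deficient and 17364, 18630 and 17364 in the controls. The difference of 0.03 ± 0.06 had a 95% interval of -0.13 to 0.18, so a 2-fold difference in either direction lay far outside it. Ncl gave 1063, 913 and 894 in the arrays labelled Klf4-deficient, against 835, 943 and 968 in the controls (0.06 ± 0.09). Nolc1, which encodes a scaffold protein of the nucleolus and Cajal bodies, gave 35.1, 31.5 and 33.7 in the arrays labelled Klf4-deficient and 27.8, 21.4 and 24.1 in the controls. Its groups did not overlap (0.29 ± 0.11, adjusted p = 0.644 from limma). These signals lie just over the background limit, which 3 of 3 Klf4-deficient arrays and 2 of 3 control arrays passed.

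Of the other nucleolar regulators, Ddx21, an RNA helicase that couples polymerase I transcription to processing, gave 569.7, 475 and 623 in the arrays labelled Klf4-deficient and 412, 421 and 487 in the controls. Arrays 1 and 3 of the Klf4-deficient group lay above all controls and array 2 did not, and the difference was 0.32 ± 0.12 (adjusted p = 0.660 from limma). Gnl3, the gene of nucleostemin, a GTPase of dividing cells, gave 208, 153 and 157, against 174, 197 and 179 in the controls (-0.09 ± 0.13). Mybbp1a, a Myb-binding protein of the nucleolus, differed by -0.03 ± 0.12.

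**Figure D2:**
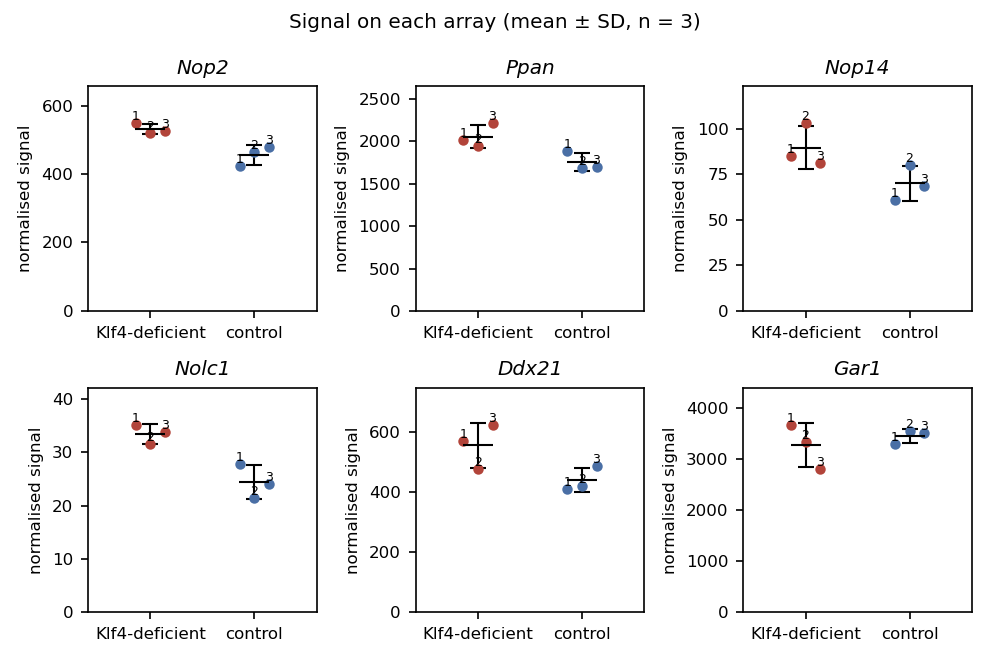
Normalised signal (vertical axis, linear, from 0) of 6 genes on each array, with Klf4-deficient arrays left in red and control arrays right in blue. Digits give the array number and black bars the mean ± SD (n = 3); Nop2, Ppan, Nop14 and Nolc1 do not overlap between the groups, while Ddx21 and Gar1 do.

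Within the Klf4-deficient group the members did not behave alike across arrays. Array 1 held the highest of the 6 values for 16 of the 26 members above background (61.5%), and for 18.8% of the 9208 genes above background. It held the lowest value for 0 of the 26, and for 16.1% of the 9208. On control arrays 1, 2 and 3, 11, 11 and 18 of the 26 members were above the control mean. On the Klf4-deficient arrays, 25 of the 26 were above it on array 1, 14 on array 2 and 13 on array 3. Of the 9208 genes above background, 4721, 4611 and 4099 were above it on these 3 arrays. The median over the 26 was 0.18 on array 1, 0.01 on array 2 and 0.00303 on array 3, while single control arrays lay between -0.05 and 0.04. Array 3 held the lowest value for 7 of the 26 (26.9%), among them Gar1, Nhp2, Nop10 and Utp6, near its 29.9% of all genes above background. It held the highest for 3 (11.5%), which were Bop1, Ppan and Ddx21, against 22.5% of all genes above background. The count of 16 was 15 or 16 under each of the 7 other normalizations, offsets and probe choices tried. It was noticed in these data, and no test of it was made.

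**Figure D3:**
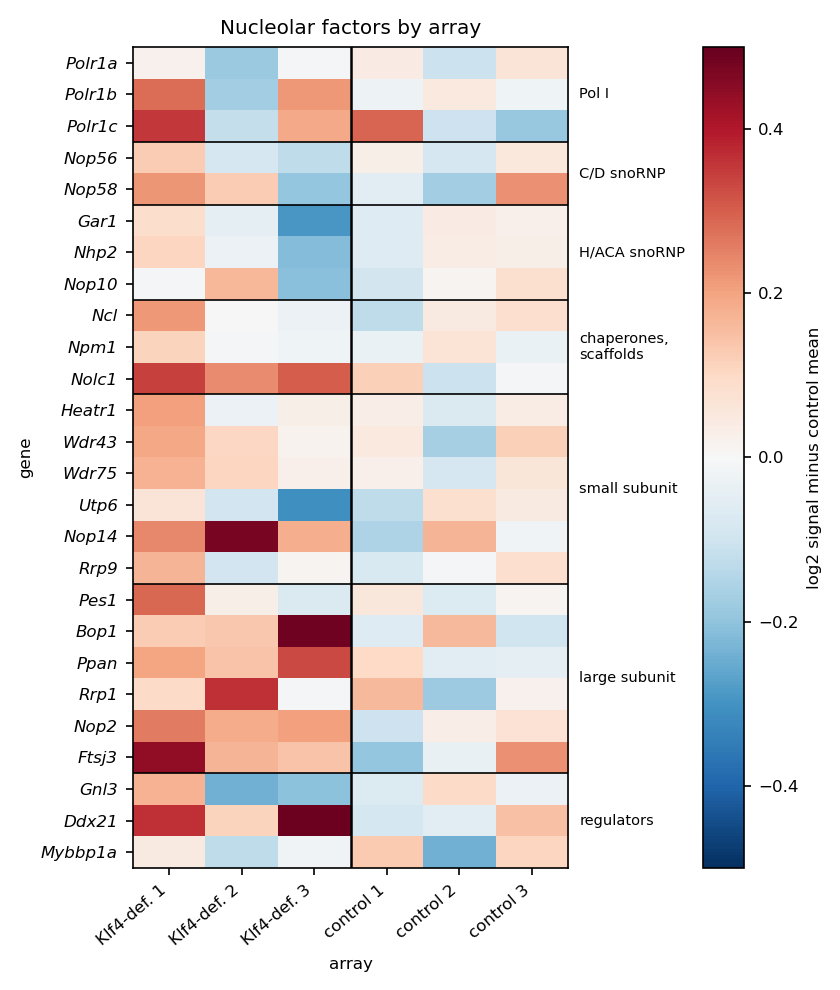
Log2 signal minus the control mean (colour, red higher and blue lower) of the 26 genes above background, in rows grouped by role, on the 6 arrays in columns, with the Klf4-deficient arrays left of the line. The first column is above 0 in 25 of the 26 rows, and the third is below 0 for Gar1, Nhp2 and Nop10.

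**Figure D4:**
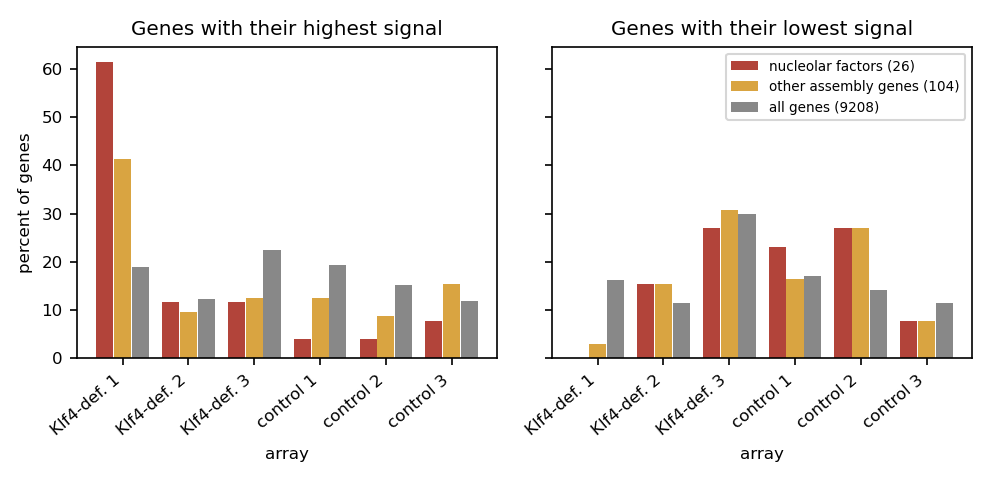
Percent of genes (vertical axis) that have their highest (left panel) or lowest (right panel) signal on each array, for the 26 nucleolar factors, 104 other ribosome assembly genes and all 9208 genes above background. The first Klf4-deficient array holds 61.5% of the highest values of the nucleolar factors, 41.3% of those of the other assembly genes and 18.8% of those of all genes.

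Probes of the same gene did not always give the same direction. Of the 26 genes above background, 11 had more than 1 probe above it, and the signs differed between probes for 5 of these 11, Polr1a, Nop2, Ddx21, Nhp2 and Nop10. Of 4 Polr1a probes, 1 did not overlap between the groups, at 270, 221 and 241 in the arrays labelled Klf4-deficient and 210, 156 and 204 in the controls (0.34 ± 0.14). The other 3 differed by -0.06, -0.13 and -0.17. A second Nop2 probe gave 372, 336 and 334 in the arrays labelled Klf4-deficient against 265, 256 and 284.5 in the controls, with a log2 difference of 0.35 ± 0.06 and an adjusted p of 0.475 from limma over every probe. This was the lowest p among the 61 probes, while the third Nop2 probe differed by -0.13 ± 0.19. For Ddx21 the second probe gave 430, 396 and 281 in the arrays labelled Klf4-deficient and 428, 346 and 411 in the controls (-0.11 ± 0.19). Both Ddx21 probes thus had their extreme on array 3 of the Klf4-deficient group, the one highest and the other lowest. A second Heatr1 probe did not overlap, at 947, 862 and 910 against 809.5, 794 and 827 in the controls (0.16 ± 0.04). The pairs of Ncl and Wdr75 probes differed from each other by 0.0030 and 0.021 log2 units.

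**Figure D5:**
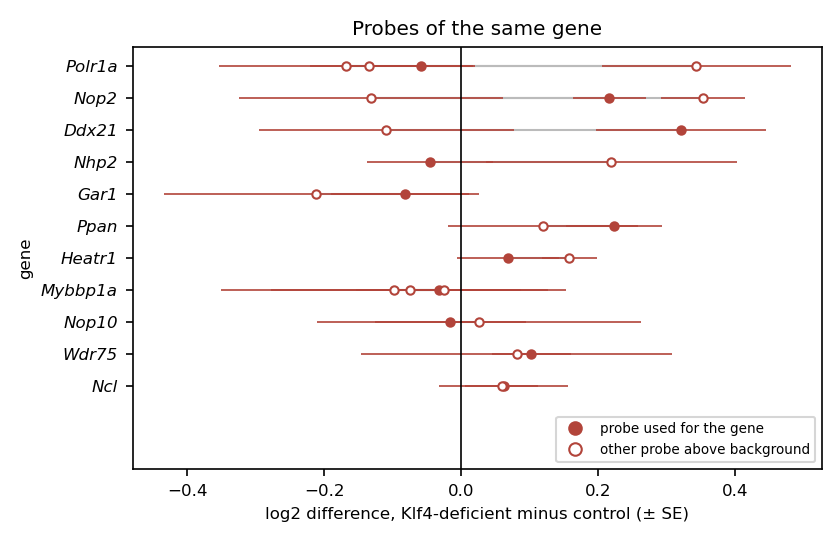
Log2 difference, Klf4-deficient minus control, of each probe above background (point, with its SE as bar) for the 11 genes with more than 1 such probe, ordered by the distance between their probes. Filled points are the probes that stand for the gene; Polr1a, Nop2 and Ddx21 have probes on both sides of 0 that lie 0.51, 0.49 and 0.43 apart.

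Promoter sequences of the 4 non-overlapping members above background are shown because these are the genes whose groups were separate. They are the 100 bases before the annotated start in RefSeq on GRCm38.p6, read 5′ to 3′ on the gene's strand. Capitals mark an E-box (CACGTG, the site bound by Myc and related factors) or the core of an ETS-family site (CCGGAAG). The Nop2 stretch is chr6:125131783-125131882 on the + strand, with the E-box 60 bases before the start. Those of Ppan at chr9:20888075-20888174 (+), Nop14 at chr5:34660149-34660248 (-) and Nolc1 at chr19:46075747-46075846 (+) hold no E-box.
Nop2: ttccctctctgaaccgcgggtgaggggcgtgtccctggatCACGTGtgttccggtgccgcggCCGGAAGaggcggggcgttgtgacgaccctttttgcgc
Ppan: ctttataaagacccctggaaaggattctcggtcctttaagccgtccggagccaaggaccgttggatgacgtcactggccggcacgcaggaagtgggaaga
Nop14: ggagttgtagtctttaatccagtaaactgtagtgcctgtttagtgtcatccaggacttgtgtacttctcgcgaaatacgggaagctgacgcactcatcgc
Nolc1: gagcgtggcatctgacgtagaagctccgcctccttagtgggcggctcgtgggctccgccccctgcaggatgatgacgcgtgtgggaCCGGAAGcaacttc

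The table of promoters held 32 windows for 30 of the 34 genes, each from 250 bases before to 50 bases after a start. Both strands were searched, and the motifs did not overlap each other. The E-box was in 6 of the 32 windows (18.8%) and in 7.15% of all 32851 windows. CCGGAAG was in 9 of 32 (28.1%) and in 8.86% of all. For GGGTGTGG and GGGCGTGG, forms of the CACCC-type element that Klf factors bind, the counts were 1 and 3 of 32, against 3.56% and 5.33% of all windows. A match is a string of letters and no measured site. The 4 members above background with an E-box had a median log2 difference of 0.09, and the 19 others with a window 0.07. With CCGGAAG it was 0.14 in 7 members, and 0.07 in the 16 without. With GGGTGTGG it was -0.03 in 1 member and 0.09 in the 22 without, and with GGGCGTGG 0.07 in 3 and 0.09 in the 20 without. No test of these medians was made. Beside Nop2, the E-box was found in the genes below, given in stretches of 24 bases with the motif in capitals, at chr11:3963968-3963991 (+) for Pes1, chr17:71616223-71616246 (+) for Wdr43, chr11:72441353-72441376 (+) for Mybbp1a, chr11:93885772-93885795 (-) for Utp18 and chr10:88826765-88826788 (-) for Utp20.
Pes1: taggcagggCACGTGcgggaggaa
Wdr43: ccgggcgaaCACGTGgctgccgcg
Mybbp1a: ctgtcttctgagccCACGTGtttg
Utp18: agcgccggtCACGTGgcttgcggc
Utp20: ggcactaactaCACGTGaggaaaa

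Other genes of the same pathway, listed apart from the 34, showed no call either. Of 125 other ribosome assembly genes 119 were measured, at a median of 0.00626 log2 units (66 above 0, 46 below 0). In limma 0 passed over all genes, and at an unadjusted p under 0.05 8 were higher and 4 lower, where 3.51% and 4.09% of all genes were. Their groups did not overlap for 17, of which 11 were higher and 6 lower, where 5.48% of all genes were higher, 6.09% lower and 11.6% either. Within them, large-subunit genes had 5 of 49 higher and 0 lower without overlap, and small-subunit genes 6 higher and 4 lower of 50, to be read against the same shares. The median log2 difference of these 49 was 0.02, with 30 above 0 and 17 below 0. It was thus nearer 0 than that of the large-subunit members. For the 50 small-subunit genes the median was 0.00088. Lyar, a growth-linked nucleolar protein, gave 250.1, 206 and 189 in the arrays labelled Klf4-deficient and 153.5, 162 and 151 in the controls (0.42 ± 0.11, adjusted p = 0.508 from limma). Wdr74, a partner of the ATPase Nvl, gave 1492, 1317.5 and 1406, against 1224, 1249 and 1217 in the controls (0.19 ± 0.05). Nmd3, the export adaptor of the large subunit, and the helicase gene Ddx31 differed by 0.19 ± 0.05 and 0.21 ± 0.06. Imp4, of the small-subunit processome, differed by 0.17 ± 0.04. On the other side stood Rcl1, another processome gene, at -0.13 ± 0.04, and Tsr2, a chaperone of a small-subunit protein, at -0.46 ± 0.15. Utp14b, 1 of the 6 small-subunit genes counted as higher without overlap, was below background on every array.

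Of polymerase I and ribosomal DNA transcription, 10 of 13 genes were measured, with a median of 0.05. Ttf1, which ends polymerase I transcription, gave 39.6, 41.2 and 36.3 in the arrays labelled Klf4-deficient against 55.4, 62.2 and 48.2 in the controls (-0.37 ± 0.12, adjusted p = 0.587 from limma). Ubtf, the upstream binding factor of polymerase I, differed by 0.05 ± 0.04, and Taf1d and Polr1d by 0.23 ± 0.15 and 0.14 ± 0.09. In the snoRNP assembly list Shq1, the chaperone of dyskerin, gave 91, 79.6 and 74.1 in the arrays labelled Klf4-deficient, against 98.2, 117.5 and 99.7 in the controls (-0.31 ± 0.11). Ruvbl2 and Rpap3, which help to assemble box C/D particles, differed by -0.09 ± 0.05 and -0.21 ± 0.21, and Naf1 was below background. For the 15 exosome genes, whose products trim ribosomal RNA precursors, 0 passed and the median was 0. Exosc7 differed by -0.12 ± 0.03 and Mphosph6 by -0.28 ± 0.11, both without overlap, and Exosc3 and Dis3 were below background.

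Myc transcript, whose product drives this pathway, was at 109, 103.5 and 85.5 in the arrays labelled Klf4-deficient and 117, 93.3 and 92.8 in the controls. The difference of -0.02 ± 0.13 had a 95% interval of -0.37 to 0.33, and the groups overlapped. Mycn was listed at 0 on all 6 arrays and Mycl was below background. Zbtb17, the gene of the Myc partner Miz-1, gave 2209, 2146 and 1953, against 2292, 2363 and 2357 in the controls (-0.15 ± 0.05, adjusted p = 0.590 from limma). Mxd1, a Max partner that opposes Myc, gave 178, 172 and 485 in the arrays labelled Klf4-deficient and 171, 174 and 166 in the controls. Only array 3 of the Klf4-deficient group stood apart. That array also had the highest erythroid, neutrophil, monocyte and NK sums, and a link between any of these and Mxd1 was not tested. Mlx, of the same network, differed by 0.17 ± 0.15.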

How the data were processed

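Probe intensity values of 6 arrays were used as deposited, on a linear scale. The submitters' processing notes name BeadStudio as the software, without a version. Between 31.3% and 34.2% of the values of an array were negative. How background was removed and whether the authors normalised these intensity values is not stated in the labels, and detection p-values were not used here. Negative values were replaced by 0 and an offset of 16 was added before log2 and quantile normalization. Of 45281 probes, 34885 had 1 gene symbol, 18 had several and 10378 were unnamed here. Each of 19057 genes was represented by its brightest probe. A normalised signal is the normalised value with the offset removed. The background limit was 3 times the SD of the negative values mirrored around 0. A gene counted as above it by its mean over all arrays, a rule set after the data were seen. Groups were compared with limma 3.58.1 in R 4.3.3 (lmFit and eBayes, variance trend on), p-values were adjusted by Benjamini-Hochberg over all genes, and the code was tested on simulated data. Permuting 3 against 3 arrays exactly gives a two-sided p of 0.10 at best, so no permutation test was used. With 3 arrays per group, precision is limited by their number. Members and lists were chosen with earlier results of these data known. Described by array were up to 8 members of smallest p, the 4 brightest, 2 per role by size of difference, and also Pes1, and up to 4 genes of smallest p per other list. Alternatives covered normalization, offset, dim probes, the choice of probe, moderation, array weights, a replicate block and leaving out each array.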

Additional observations from a re-analysis of the deposited data

How the results depend on the processing

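The call of 0 nucleolar factors held under 19 alternatives, with 0.406 as the lowest adjusted p from limma. Of the 26 members above background, 13 kept the sign of their difference in every alternative run and 13 took the other sign at least once. No normalization put the median of all genes above background at -0.105 log2 units, that of the 34 members at -0.0089 and that of the other assembly genes at -0.075. Leaving out 1 array gave a median of the 34 from -0.00031 (without Klf4-deficient array 1) to 0.11. Members without overlap numbered 3 with no normalization (10.6% of all genes), 3 when a gene's probes were averaged (11% of all genes), 9 of 61 probes with every probe tested (8 higher, 1 lower, and 9.9% of all probes), and 5 to 9 with an array left out, where fewer arrays also bring the share among all genes to between 17.6% and 22.4%. For the large-subunit members, a result added after the data were seen, the median was 0.11 with no normalization or offset 50, 0.19 with cyclic loess, 0.21 with median centring, 0.22 with genes above background alone, 0.23 with offset 1, and 0.16 to 0.23 with an array left out. Calls over all genes, 2 as reported, numbered 1 with cyclic loess, offset 50, every probe, no variance trend or robust moderation, 5 with no normalization or offset 1, 0 with averaged probes or the replicate block, and 3 to 21 with an array left out. Deviations of arrays with the same replicate number correlated at 0.19, -0.04 and -0.18, and those with different numbers at -0.29 to 0.26. With 3 arrays per group these values cannot decide whether the samples were paired. With the replicate block, the lowest adjusted p of a member was 0.691 from limma. The cause of these shifts was not tested. Signals near the background limit, as for Nolc1, carry the least weight.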
